A study of Rattus norvegicus with 12 samples.

Results

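Inflammatory cytokine genes and the feedback genes of the NF-kB and STAT3 pathways were followed in rat brain slice cultures after a nerve fibre tract was cut. The list holds 10 genes, namely Il1a, Il1b, Il1rn, Il6, Tnf, Icam1, Nfkbia, Tnfaip3, Socs3 and Stat3, and spots were assigned to it by gene symbol. The list was drawn up with earlier results of these arrays known. Of the 10 genes, 9 have at least 1 spot under their symbol on the array, with 15 spots in all. Tnfaip3, which encodes a ubiquitin-editing inhibitor of NF-kB, has no spot under its symbol. The array table as a whole gave 14871 genes from 44290 spots.

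The samples were organotypic co-cultures, in which slices of hippocampus and entorhinal cortex are kept alive on medium with horse serum and stay joined by the entorhino-hippocampal pathway. That pathway was cut with a knife after 15 days in vitro, and RNA was taken 1, 3 or 7 days later from axotomized cultures and from uncut cultures of the same day. Each of the 12 arrays carried RNA of both kinds in different dyes, and each day had 2 biological replicates with 2 dye-swapped arrays each. The labels give the species as Rattus norvegicus and the array as one for the rat, while the treatment text speaks of wild type mice, and the sources used here do not settle this. All groups share the 15 days of culture, the slicing that precedes it and the serum. No drug, transgene or deletion is named in the labels. The labels do not say what a biological replicate consists of, so the p-values measure only the spread between these samples, and the number of arrays limits the precision.

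Each value is a log2 ratio of the channels. The direction is taken as axotomized over control, which the sources do not state but the wording of the titles and the listing of axotomized RNA as the first channel make likely. If it runs the other way, every sign turns. The table holds no signal intensity, so it cannot be said which of these genes were above background, and levels of different genes or of tissue markers could not be compared. In such bulk RNA, fewer cells of a type and less RNA per cell cannot be told apart.

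Interleukin 1 and tumour necrosis factor are cytokines released early by activated microglia, and their receptors free the transcription factor NF-kB from its inhibitor IkB-alpha. NF-kB then drives genes for cytokines, chemokines and adhesion molecules, and also the gene Nfkbia for IkB-alpha, which switches the pathway off again. Interleukin 6 acts through a shared receptor subunit on STAT3, whose target Socs3 encodes an inhibitor of the same receptor complex. In the brain these pathways are known for the reactions of microglia and astrocytes to injury.

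The promoters of 4 members are shown because the ratios described below concern the RNA made from them. The sequences are those of RefSeq on the rat build GRCr8, each covering 250 bases before and 50 bases after the start of the gene, written 5′ to 3′ along the strand of the gene. Capitals mark matches to the NF-kB-like motif GGANNTTCC on either strand or to the STAT motif TTCNNNGAA, which reads the same on both strands.
Icam1, chr8:27829595-27829894, plus strand: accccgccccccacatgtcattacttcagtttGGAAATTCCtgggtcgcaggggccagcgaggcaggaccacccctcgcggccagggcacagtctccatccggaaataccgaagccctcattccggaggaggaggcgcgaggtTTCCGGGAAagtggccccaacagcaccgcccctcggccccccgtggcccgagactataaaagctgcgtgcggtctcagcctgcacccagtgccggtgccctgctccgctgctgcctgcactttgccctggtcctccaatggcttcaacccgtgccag
Nfkbia, chr6:78597023-78597322, minus strand: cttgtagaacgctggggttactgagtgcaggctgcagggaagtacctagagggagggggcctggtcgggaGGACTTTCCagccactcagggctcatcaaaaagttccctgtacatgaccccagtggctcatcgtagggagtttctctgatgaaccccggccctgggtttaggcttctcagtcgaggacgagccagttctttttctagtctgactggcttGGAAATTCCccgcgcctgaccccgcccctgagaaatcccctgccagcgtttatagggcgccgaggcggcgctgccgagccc
Il6, chr4:5894526-5894825, minus strand: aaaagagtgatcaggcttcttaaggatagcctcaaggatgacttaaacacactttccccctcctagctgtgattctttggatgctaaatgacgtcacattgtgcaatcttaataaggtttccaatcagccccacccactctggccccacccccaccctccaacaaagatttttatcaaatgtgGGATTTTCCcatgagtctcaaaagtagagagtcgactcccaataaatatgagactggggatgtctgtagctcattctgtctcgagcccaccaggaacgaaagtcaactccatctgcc
Il1b, chr3:137036532-137036831, minus strand: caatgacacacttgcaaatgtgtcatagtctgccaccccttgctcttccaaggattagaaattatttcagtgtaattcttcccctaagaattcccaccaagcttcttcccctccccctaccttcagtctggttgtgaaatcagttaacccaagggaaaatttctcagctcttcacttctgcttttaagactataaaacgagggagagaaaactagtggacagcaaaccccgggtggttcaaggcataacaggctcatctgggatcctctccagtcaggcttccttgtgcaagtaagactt
In the Icam1 window the NF-kB-like match begins at position -218 and the STAT match at -107, counted from the start of the gene. The Nfkbia window holds 2 NF-kB-like matches, which begin at -180 and -31. The Il6 window holds 1 at -67, and these letters do not occur in the Il1b window. All 10 listed genes had a promoter in the table. Of these, 5 hold the NF-kB-like motif (Icam1, Nfkbia, Il6, Tnf and Tnfaip3) and 1 holds the STAT motif, and no match of the 2 motifs overlaps another. Over all 33469 rat promoters of this length, 4.09% hold the NF-kB-like motif and 8.87% the STAT motif. The motifs were chosen with the sequences in view, so setting these counts beside the shares is no test of enrichment. A match describes letters only and shows no bound factor.

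One day after the cut, Icam1 was the only one of the 9 measured genes that passed the test, and it was lower in axotomized cultures. Il1b, Stat3 and Nfkbia also had ratios below 0 on all 4 arrays of day 1, and none of them passed. On day 3 Il1b, Nfkbia and, with a mean of only 0.04, Il1rn had ratios above 0 on all 4 arrays, without passing. Icam1 lay below 0 on all 4 arrays of day 3, also without passing. The share of all genes with 1 sign on the 4 arrays of a day was not counted. On day 7 the means of all 9 lay between -0.07 and 0.10. Il1a, Il6, Tnf, Il1rn and Socs3 had means between -0.09 and 0.10 on each of the 3 days and passed on none.

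**Figure D1:**
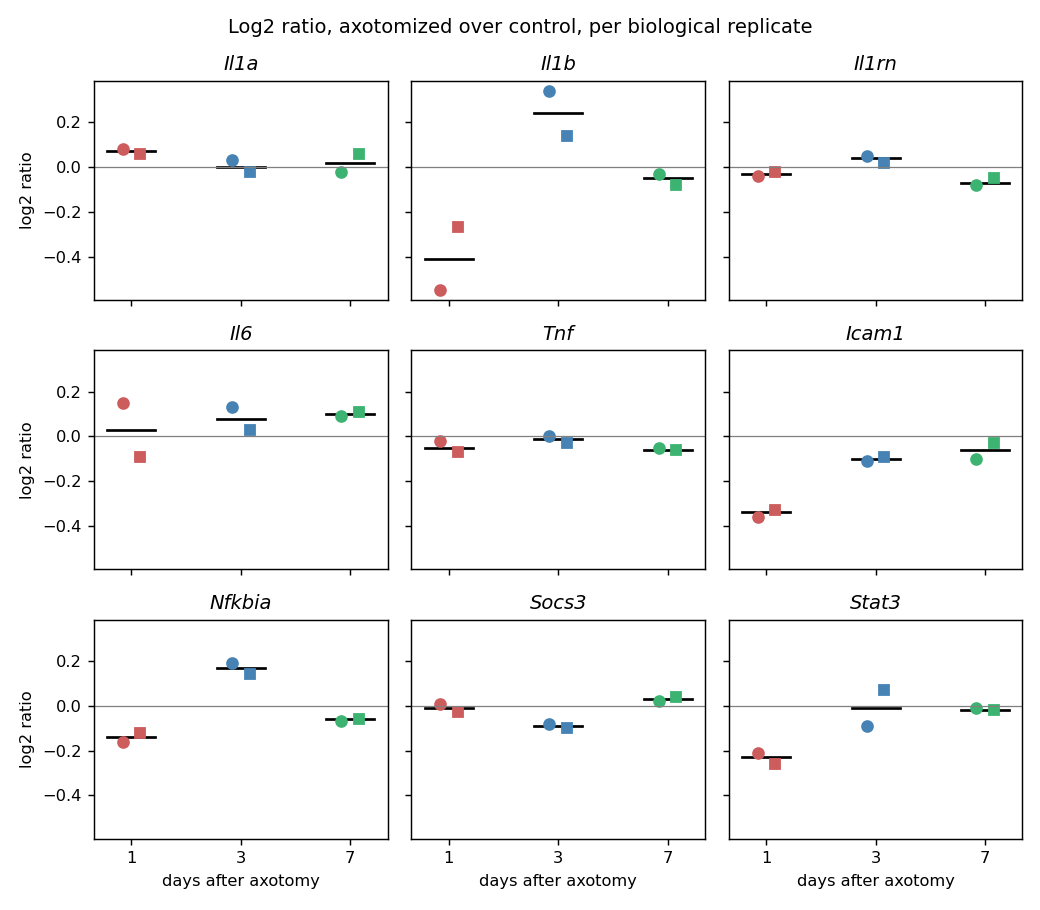
Log2 ratio of axotomized over control RNA for each of the 9 measured genes against days after axotomy, with a circle for replicate 1, a square for replicate 2 and a bar for their mean. Icam1 lies at -0.36 and -0.33 on day 1, and Il1b goes from -0.55 and -0.27 on day 1 to 0.34 and 0.14 on day 3.

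Counts were read against the whole array. Limma's adjusted p (Benjamini-Hochberg over all 14871 genes) was under 0.05 on day 1 for 88 genes, which is 0.592%, of which 33, or 0.222% of all genes, were lower. On day 1, 1 of the 9 genes passed and it was lower, and Icam1, Il1b, Stat3 and Nfkbia had an unadjusted limma p under 0.05, as did 13.2% of all genes (1968). On day 3, 0 of the 9 passed, against 1.03% of all genes (153), and 4 had an unadjusted limma p under 0.05, namely Il1b, Icam1, Nfkbia and Socs3, as did 14.4% of all genes (2146). On day 7, 0 of the 9 passed, against 0% of all genes, and 0 had an unadjusted limma p under 0.05, against 9.37% of all genes (1393). The median ratio of the 9 genes was -0.05 on day 1, 0.00 on day 3 and -0.05 on day 7, and the median of all genes was 0.010, 0.006 and 0.003. On day 1, 7 of the 9 genes lay below 0, as did 43.6% of all genes.

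Among the ligands, Il1b, the secreted interleukin 1 beta, had the widest range of ratios. Its gene mean over 3 spots on day 1 was -0.60 and -0.49 on the arrays of replicate 1 and -0.22 and -0.33 on those of replicate 2. On day 3 the 4 arrays gave 0.43, 0.25, 0.21 and 0.06. On day 7 they gave -0.03, -0.02, -0.09 and -0.07. All arrays of day 1 were thus low, all of day 3 were above 0, and the days 1 and 3 did not overlap. These arrays are dye-swapped pairs of 2 replicates a day, and the share of all genes without such overlap was not counted. The mean on day 1 was -0.41 ± 0.19 (SD, n = 2), with a 95% interval of -0.60 to -0.22 and a limma adjusted p of 0.113. The mean on day 3 was 0.24 ± 0.14 (SD, n = 2; limma adjusted p = 0.252), and that on day 7 was -0.05 ± 0.035 (SD, n = 2; limma adjusted p = 0.878). The day 1 value therefore missed the threshold even though it was the 95th lowest of all genes.

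The 3 spots of Il1b did not give the same ratio. The 2 spots annotated with the RefSeq mRNA had means of -0.79 and -0.48 on day 1, 0.40 and 0.23 on day 3, and -0.18 and -0.03 on day 7. The spot annotated with an expressed sequence tag had 0.04, 0.09 and 0.05, so it lay near 0 throughout. With the RefSeq spots alone, a choice made after seeing these values, Il1b was -0.86 and -0.41 in the replicates of day 1, with a mean of -0.63 ± 0.31 (SD, n = 2) and a limma adjusted p of 0.111. The same choice gave 0.46 and 0.16 on day 3, with a mean of 0.31 ± 0.21 (SD, n = 2; limma adjusted p = 0.32).

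**Figure D2:**
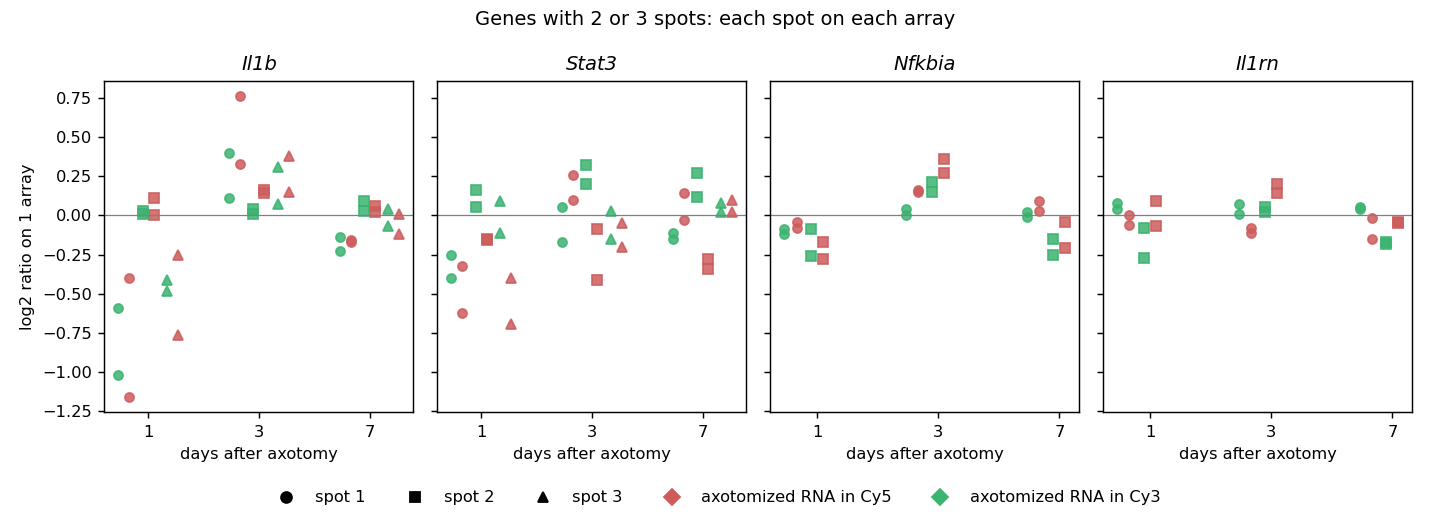
Log2 ratio of each spot on each of the 12 arrays for the 4 genes with more than 1 spot, against days after axotomy. Symbols mark the spot and colours the dye that carried the axotomized RNA, and 2 of the 3 Il1b spots and 2 of the 3 Stat3 spots lie below the other one on day 1 (Il1b means -0.79 and -0.48 against 0.04; Stat3 means -0.40 and -0.28 against -0.03).

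Il1a, the cell-bound form of interleukin 1, did not differ from 0 beyond its error. Its replicates were 0.08 and 0.06 on day 1, 0.03 and -0.02 on day 3, and -0.02 and 0.06 on day 7. The limma adjusted p values were 0.499, 0.974 and 0.906. The Il1a spot had a ratio above 0 on all 6 arrays with axotomized RNA in Cy3, from 0.08 to 0.19, and on 5 of the 6 arrays in Cy5 it lay below 0. Its sign thus went with the dye.

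Il6, the cytokine upstream of STAT3, was 0.15 and -0.09 on day 1, 0.13 and 0.03 on day 3, and 0.09 and 0.11 on day 7. The replicates of day 1 lay on both sides of 0. The means were 0.03 (95% interval -0.12 to 0.19), 0.08 (-0.07 to 0.24) and 0.10 (-0.06 to 0.25), with limma adjusted p values of 0.879, 0.634 and 0.675. Here too the dyes gave different values, with means of -0.10, -0.02 and 0.00 with the axotomized RNA in Cy5 and of 0.16, 0.18 and 0.20 with it in Cy3.

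Tnf, which encodes tumour necrosis factor, was -0.02 and -0.07 on day 1, 0.00 and -0.03 on day 3, and -0.05 and -0.06 on day 7. Its 95% intervals were -0.13 to 0.03, -0.10 to 0.07 and -0.14 to 0.02, and its limma adjusted p values were 0.608, 0.893 and 0.639. On days 1 and 3 its arrays in Cy5 lay below those in Cy3, and on day 7 all 4 lay below 0.

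Il1rn encodes the receptor antagonist that blocks interleukin 1. It gave -0.04 and -0.02 on day 1, 0.05 and 0.02 on day 3, and -0.08 and -0.05 on day 7, with limma adjusted p values of 0.729, 0.66 and 0.582. Both of its spots are annotated with the RefSeq mRNA, and they differed. The first had means of 0.01, -0.03 and -0.02 over the 3 days and the second -0.08, 0.10 and -0.11, so their signs were opposite on days 1 and 3.

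Icam1 encodes an adhesion molecule of endothelium, microglia and astrocytes that binds leukocyte integrins and is a textbook target of NF-kB. On day 1 its 1 spot gave -0.38 and -0.35 on the arrays of replicate 1 and -0.44 and -0.21 on those of replicate 2. On day 3 the arrays gave -0.15, -0.07, -0.11 and -0.06, and on day 7 -0.09, -0.10, 0.02 and -0.08. Every array of day 1 was therefore lower than every array of days 3 and 7. These arrays are dye-swapped pairs of 2 replicates a day, and the share of all genes with such a separation was not counted. The differences of day 1 from days 3 and 7 did not pass the test. The mean on day 1 was -0.34 ± 0.025 (SD, n = 2), or 0.787 of the control on the linear scale, with a 95% interval of -0.43 to -0.26 and a limma adjusted p of 0.0292. By unadjusted p it was the 40th of all genes and by size the 139th lowest. The means were -0.10 ± 0.017 (SD, n = 2; limma adjusted p = 0.288) on day 3 and -0.06 ± 0.048 (SD, n = 2; limma adjusted p = 0.634) on day 7.

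The call of Icam1 was lost whenever any 1 replicate was left out. Without replicate 1 of day 1 the ratio was -0.33 and limma's adjusted p 0.295, without replicate 2 of day 1 it was -0.36 with 0.138, without either replicate of day 3 the adjusted p was 0.0788, and without either replicate of day 7 it was 0.054. It was also lost with each day fitted alone (0.0861), after quantile normalization (-0.44, 0.157) and with only the arrays that had axotomized RNA in Cy3 (-0.28, 0.0708). With axotomized RNA in Cy5 only it was -0.41 (limma adjusted p = 0.0181). Markers of the cells that can carry Icam1 were read beside it. Of 8 endothelial markers on day 1, 5 lay below 0, from -0.87 (Slc2a1) to 0.06, with replicate means of -0.19 and -0.10 and a median of -0.01, and 0 of them passed. Of 14 markers of microglia and macrophages, 11 lay above 0 on day 1, with a median of 0.15, and of 8 astrocyte markers 4 lay above and 4 below, with a median of 0.00, and 0 of either list passed on that day. Of all genes, 43.6% lay below 0 on day 1 and 0.592% passed. The part of these cells in the Icam1 ratio was not tested.

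Nfkbia, the gene for IkB-alpha, had a small ratio on each day that repeated between replicates. It was -0.16 and -0.12 on day 1, 0.19 and 0.14 on day 3, and -0.07 and -0.06 on day 7. Its sign on day 1 was negative on all 4 arrays, and on day 3 it was positive on all 4. The means were -0.14 ± 0.025 (SD, n = 2; limma adjusted p = 0.176), 0.17 ± 0.033 (SD, n = 2; limma adjusted p = 0.0952) and -0.06 ± 0.003 (SD, n = 2; limma adjusted p = 0.606). The 2 spots, both annotated with the RefSeq mRNA, went the same way on days 1 and 3 but not on day 7. The first had -0.08, 0.09 and 0.03, and the second -0.20, 0.25 and -0.16.

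Stat3, the transcription factor downstream of interleukin 6, was -0.21 and -0.26 on day 1, -0.09 and 0.07 on day 3, and -0.01 and -0.02 on day 7. All 4 arrays of day 1 lay below 0, at -0.30, -0.12, -0.48 and -0.04. The means were -0.23 ± 0.037 (SD, n = 2; limma adjusted p = 0.117) on day 1, -0.01 ± 0.11 (SD, n = 2; limma adjusted p = 0.952) on day 3 and -0.02 ± 0.01 (SD, n = 2; limma adjusted p = 0.946) on day 7. Of its 3 spots, the first had -0.36 and -0.43 in the replicates of day 1, the third -0.26 and -0.30, and the second, annotated with an expressed sequence tag, 0.00 and -0.05. The third spot depended on the dye, with a mean of -0.54 in Cy5 and -0.01 in Cy3 on day 1. With the RefSeq spots alone, which was not planned, the day 1 mean was -0.34 ± 0.039 (SD, n = 2; limma adjusted p = 0.078).

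Socs3, the feedback inhibitor that STAT3 induces, was 0.01 and -0.03 on day 1, -0.08 and -0.10 on day 3, and 0.02 and 0.04 on day 7. The limma adjusted p values were 0.945, 0.307 and 0.816. Its arrays split by dye on day 1, at -0.11 and -0.23 in Cy5 against 0.13 and 0.17 in Cy3. The 95% interval was -0.09 to 0.07 on day 1, -0.17 to -0.01 on day 3 and -0.05 to 0.11 on day 7.

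For many spots the dye orientation moved the value by as much as the ratio itself. The dye part of a spot is the part of its ratio that turns when the dyes are exchanged, and the mean of both orientations cancels it. It was larger than the ratio itself for 7 of the 15 spots on day 1, 7 on day 3 and 6 on day 7, and it reached 0.27, 0.25 and 0.25 on those days. For the remaining 8, 8 and 9 spots the means of both dyes had 1 sign, which is the same count seen from the other side. Icam1 and the RefSeq spots of Il1b on day 1 are among them, with dye parts of -0.07, 0.01 and -0.03. Of the 9 genes, 5 or 6 kept their sign between the dye orientations of a replicate, as did 39.7% to 55.9% of all genes. Over all genes the dye orientations of a replicate correlated at -0.08 to 0.47. The split by dye was thus not particular to these spots.

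**Figure D3:**
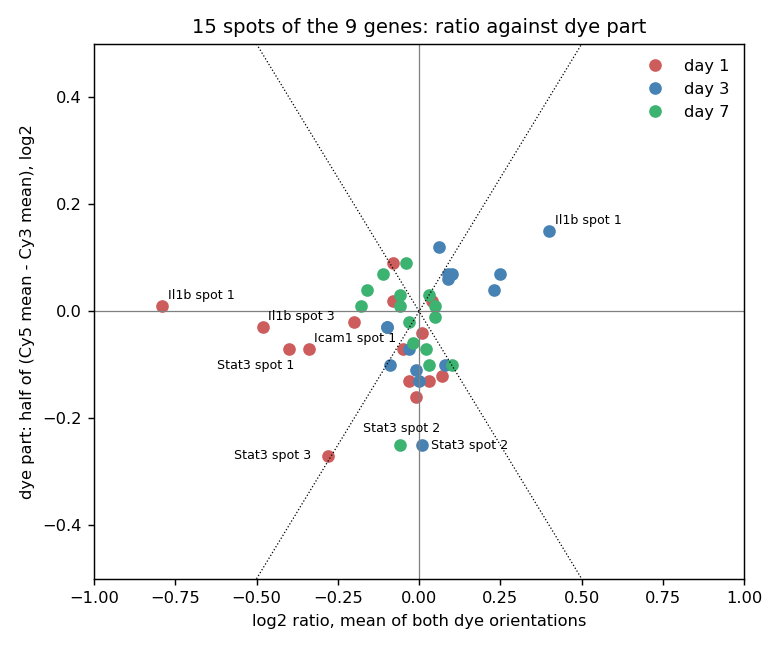
Dye part against log2 ratio for the 15 spots on days 1, 3 and 7, with dotted lines where both are equal in size. The Il1b spots 1 and 3 and the Icam1 spot on day 1 lie far to the left with dye parts near 0, while Stat3 spot 3 on day 1 has a dye part of -0.27 beside a ratio of -0.28.

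The ratios of the days were also set against each other within the same fit. From day 1 to day 3, Il1b differed by 0.65 (95% interval 0.38 to 0.92; limma adjusted p = 0.169), Nfkbia by 0.31 (0.19 to 0.42; limma adjusted p = 0.15), Icam1 by 0.25 (0.13 to 0.37; limma adjusted p = 0.226) and Stat3 by 0.22 (0.07 to 0.38; limma adjusted p = 0.362). None of the 9 genes passed, and neither did any of all genes (0%). In that comparison limma gave an unadjusted p under 0.05 for 4 of the 9 genes and for 1316 of all genes, or 8.85%. From day 1 to day 7, 0 of the 9 passed against 0.121% of all genes (18). Icam1 differed there by 0.28 (limma adjusted p = 0.106), Il1b by 0.36 (0.262) and Stat3 by 0.22 (0.235), and these 3 had an unadjusted limma p under 0.05, as did 12.9% of all genes (1916). From day 3 to day 7, 0 of the 9 passed against 0.356% of all genes (53). Nfkbia differed by -0.23 (limma adjusted p = 0.117), Il1b by -0.29 (0.349) and Socs3 by 0.12 (0.361), the 3 with an unadjusted limma p under 0.05, against 13% of all genes (1927). So the change of sign of Il1b and Nfkbia between days 1 and 3 is a difference of means that did not pass the test over all genes. Limma's F test of the 3 day ratios against 0 gave the lowest adjusted p for Icam1 (0.0528), then Nfkbia (0.105) and Il1b (0.138). That test does not ask whether the days differ. Limma's F test of change between days gave adjusted p values of 0.106 for Nfkbia, 0.123 for Icam1 and 0.131 for Il1b. None of the 9 genes passed it, while 20 of all genes did.

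Genes that NF-kB is known to induce were read as a list of 22, all measured. On day 1, 20 of the 22 lay below 0, as did 43.6% of all genes, with a median of -0.12 against 0.010 for all genes. Of the 22, 2 fell, against 0.222% of all genes. Cxcl1, a chemokine for neutrophils, was -1.74 and -1.93, with a mean of -1.83 ± 0.14 (SD, n = 2; limma adjusted p = 0.0316). Ier3, an immediate early gene, was -0.52 and -0.66, with a mean of -0.59 ± 0.099 (SD, n = 2; limma adjusted p = 0.0179). Both were thus low in each replicate. Ccl20, a chemokine for lymphocytes and dendritic cells, was -1.07 and -1.25 (limma adjusted p = 0.0544) and did not pass. On day 3 the median was 0.02 with 12 of 22 above 0, and on day 7 it was 0.01 with 11 above, and 0 passed on either day. Cxcl10, an interferon-induced chemokine, was -0.58 and -0.52 on day 3 (limma adjusted p = 0.0517) and did not pass. With only spots annotated with a RefSeq mRNA, a setting that was not planned, it was -1.08 (limma adjusted p = 0.0485).

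Genes that STAT3 is known to induce formed a list of 17, all measured. On day 1, 15 of the 17 lay below 0, against 43.6% of all genes, with a median of -0.13. Of the 17, 1 fell, against 0.222% of all genes. This was Lcn2, an iron-binding acute phase protein, at -0.57 and -0.79, with a mean of -0.68 ± 0.15 (SD, n = 2; limma adjusted p = 0.0281). Timp1, an inhibitor of metalloproteinases, stood on the other side at 1.07 and 0.59 (limma adjusted p = 0.0521), and Junb, a subunit of the transcription factor AP-1, was -0.45 and -0.32 (0.0718). On day 3, 1 gene rose, the protease inhibitor A2m, at 0.80 and 0.93, with a mean of 0.86 ± 0.09 (SD, n = 2; limma adjusted p = 0.0232), while the median was -0.02. Of all genes, 0.592% rose on day 3. On day 7, 0 passed and the median was -0.01. Both lists were chosen with earlier results of these data known, so their counts describe these arrays only.

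**Figure D4:**
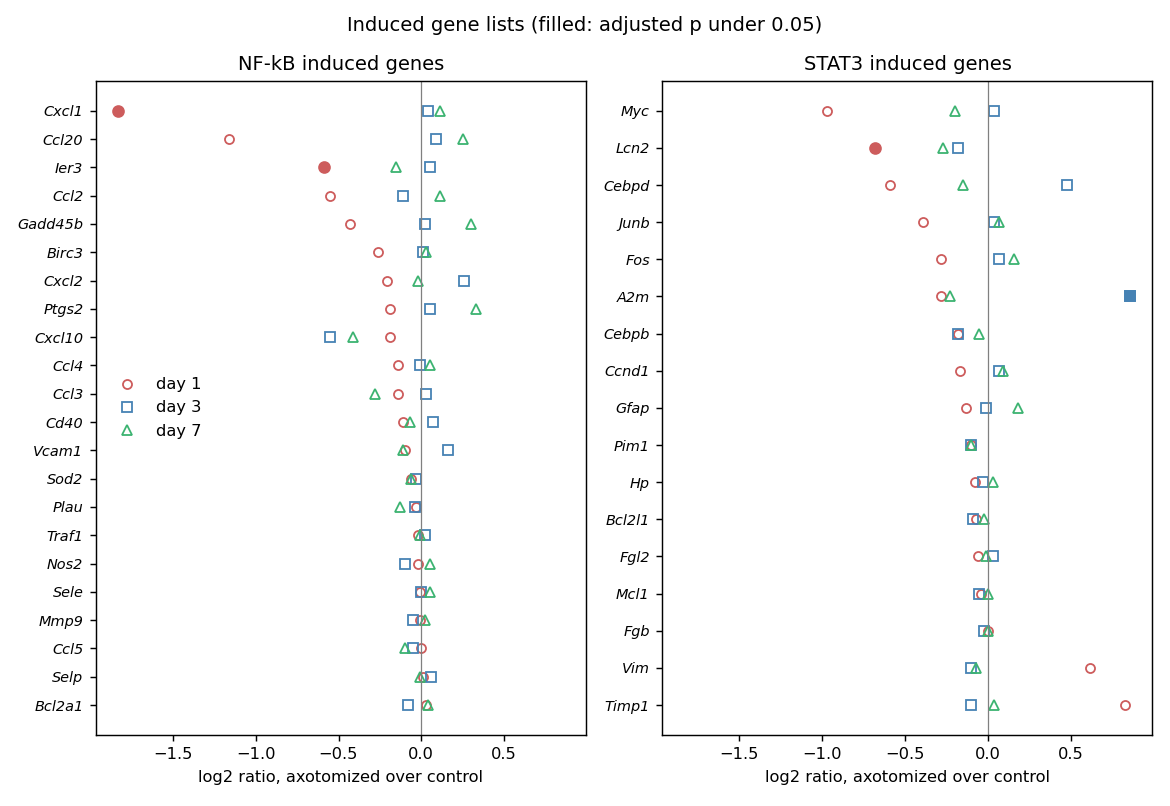
Log2 ratio of axotomized over control RNA for each gene of the lists of NF-kB induced and STAT3 induced genes, with circles for day 1, squares for day 3 and triangles for day 7, and filled symbols for limma adjusted p under 0.05. On day 1, 20 of 22 and 15 of 17 genes lie left of 0, with Cxcl1 at -1.83, Ier3 at -0.59 and Lcn2 at -0.68 filled, and A2m is filled at 0.86 on day 3.

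Genes of the signalling machinery were read against all genes, of which 0.592%, 1.03% and 0% passed on days 1, 3 and 7. At such shares, a count of 0 in a short list does not set it apart from all genes. Of 19 measured NF-kB activation genes (of 21 listed), 0 passed on any day, with medians of 0.01, 0.00 and -0.01. Nfkb1, a subunit of NF-kB, had -0.30 and -0.22 on day 1 (limma adjusted p = 0.0654), and the pattern receptor Tlr2 had 0.22 and 0.22 on day 3 (0.104). The kinases Ikbkb and Irak4 had means of 0.12 and 0.14 on day 3. Of 13 measured inhibitors and deubiquitinases of NF-kB (of 14 listed), 0 passed. Bcl3, an atypical member of the IkB family, had the largest ratios, at -0.73 and -0.56 on day 1 (limma adjusted p = 0.061) and 0.51 and 0.51 on day 3 (0.0758). The difference between these days was 1.15 (limma adjusted p = 0.0918). Tnip2, a partner of Tnfaip3, had -0.27 and -0.28 on day 1 (limma adjusted p = 0.0654) and -0.20 and -0.32 on day 3 (0.0569), while Nfkbiz, another IkB family member, had a mean of -0.16 on day 1 and Tax1bp1, an adaptor of Tnfaip3, 0.19 on day 7. So Bcl3 shared the signs of Nfkbia on days 1 and 3, and Tnip2 did not.

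All 14 listed cytokine receptors were measured and 0 passed on any day, against 0.592%, 1.03% and 0% of all genes on days 1, 3 and 7. On day 3, 12 of them lay above 0, with a median of 0.07, while 46.2% of all genes lay below 0. Il6r, which binds interleukin 6, had 0.27 and 0.35 on day 1 (limma adjusted p = 0.0821), Tnfrsf1b had a mean of 0.19 on day 3, Tnfrsf1a had -0.14 on day 7, and Ltbr, the lymphotoxin receptor, had -0.22 and -0.25 on day 3 (0.094). Of 20 measured genes of JAK-STAT signalling (of 23 listed), 1 rose on day 3, as did 0.592% of all genes. This was Stat5a, a transcription factor of the STAT family. It was 0.37 and 0.31, with a mean of 0.34 ± 0.042 (SD, n = 2; limma adjusted p = 0.0416). The phosphatase Ptpn6, known as a brake on cytokine signalling, had 0.41 and 0.23 on day 3 (0.0789), and Jak2 and Ptpn11 had means of 0.18 and 0.13 on day 7 without passing. Of 27 other cytokines, all measured, 1 fell on day 3, as did 0.437% of all genes. This was Cntf, a survival factor of the interleukin 6 family made by astrocytes. It was -0.85 and -1.03, with a mean of -0.94 ± 0.12 (SD, n = 2; limma adjusted p = 0.0259). The values of Clcf1 on day 1 (-0.26), Il33 on day 3 (0.15) and Csf1 on day 7 (-0.19) did not pass.

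The calls of these listed genes also depended on the replicates and settings used. Cxcl1, Ier3, Lcn2, Cntf and A2m each kept an adjusted p under 0.05 in 2 of the 6 fits that left out a replicate, which were those without a replicate of day 7, and Stat5a in 0 of 6. The highest adjusted p over these fits was 0.286 for Cxcl1, 0.0952 for Ier3, 0.117 for Lcn2, 0.14 for Cntf, 0.127 for A2m and 0.17 for Stat5a. Quantile normalization ended the calls of Cxcl1 (limma adjusted p = 0.395), Lcn2 (0.141), Cntf (0.128), A2m (0.198) and Stat5a (0.0972). Fitting each day alone ended those of Ier3 (0.0662), Lcn2 (0.0737), Cntf (0.092), A2m (0.0889) and Stat5a (0.154), and arrays with axotomized RNA in Cy5 only ended that of Stat5a (0.056).

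Markers of microglia and macrophages, the main source of interleukin 1 beta in brain, were read beside these genes. On day 1, 11 of 14 lay above 0, with list means of 0.09 and 0.16 in the replicates. On day 3, 13 of 14 did, with 0.26 and 0.17, and on day 7, 13 of 14 lay below 0, with -0.13 and -0.19. None of the 14 passed on any day, against 0.592%, 1.03% and 0% of all genes on days 1, 3 and 7. Of all genes, 43.6%, 46.2% and 47.8% lay below 0 on days 1, 3 and 7. On day 1 the list means thus lay above 0 and Il1b below, but 3 of the markers also lay below. The lowest of them was Fcgr2b, at -0.49 in both replicates. On day 3 the list means and Il1b lay above 0. Of 7 markers of T cells and neutrophils, 0 passed, with medians of 0.04, 0.02 and -0.02. Of 8 astrocyte markers, 3 rose on day 3 (Glul 0.75, Gjb6 0.40 and Aqp4 0.34), as did 1 of 6 measured oligodendrocyte markers (Sox10 0.63), and 0 of 8 neuronal markers passed. These 4 genes are named because they passed, and 0.592% of all genes rose on day 3. The part of any of these cells in the ratios of the 9 genes was not tested.

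The genes whose ratios over the 6 replicates were most like those of 4 members were found by Euclidean distance, where 0 means equal values in all 6. Nearest to Icam1, whose own values lie 0.518 from 0, were Btg1 (0.148), Rd3l (0.168) and Cited2 (0.175), with day 1 means of -0.29, -0.26 and -0.35. Nearest to Il6 were Mettl4 (0.0885), Lao1 (0.0905) and Tnfrsf8 (0.0974), and the Il6 values lie only 0.264 from 0. Tnf and Socs3 lie 0.114 and 0.139 from 0, so their nearest genes (Mpp2 at 0.0379 and Scnn1g at 0.0468) are genes with ratios near 0 as well.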

How the data were processed

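RNA of axotomized and control co-cultures was labelled by in vitro transcription from 500 ng per sample and hybridised to Agilent rat arrays, per the labels' protocols. The authors deposited a table of log2 ratios of the channels, and per the submitters' processing notes they used limma, with no version given. Base 2, the background correction and the normalization are not stated in the sources used here, and base 2 follows limma's convention. Array medians lay between -0.022 and 0.027. Of the spots, 23535 have 1 gene symbol, 48 several and 20707 none.

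Spots with exactly 1 symbol were averaged per gene, and so were the values of both dye orientations within each replicate. A linear model from limma 3.58.1 (run in R 4.3.3 on values read with the package data.table, version 1.17.8) was fitted to these 6 values, with 1 coefficient per day against 0 and the differences between days, two-sided, with Benjamini-Hochberg adjustment over all 14871 genes at 0.05. The spread was estimated over all days, on 3 residual degrees of freedom and 2.72 from limma's prior. No filter on dim spots was possible, as the table holds no intensities. The correlation of the replicates over all genes was 0.48, 0.40 and 0.29 on days 1, 3 and 7. The fit was also run on simulated independent noise with added shifts, without dye effects or effects shared by replicates. That run does not show how well the fit suits these arrays. Motifs were searched and figures drawn with Python 3.11.15, pandas 2.3.3 and matplotlib 3.10.9, and the motifs were chosen with the sequences in view.

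The members, the 7 pathway lists and the 6 marker lists were chosen with earlier results of these data known. Named were every member, up to 4 genes per pathway list with the smallest p, and the 3 genes nearest to each of 4 members. Genes on several lists count in each. Listed genes without a spot were not analysed here. Alternatives were 1 dye only, median centring, quantile normalization, a dye term, a random block, a replicate block, each day alone, single spots, the median of spots, a robust prior, RefSeq spots only and leaving out each replicate.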

Additional observations from a re-analysis of the deposited data

Results flagged for a closer look

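For 2 of the named genes the ratio of day 7 differed from that of day 3 in the test of the difference itself. Stat5a differed by -0.57 (limma adjusted p = 0.0447) and A2m by -1.10 (limma adjusted p = 0.0429). None of the 9 measured members did.

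In 5 of 111 groups of 4 arrays tested, 1 array lay far from the other 3, and chance alone gives about 1 in 20. None of these were among the 27 groups of the members. Ptpn6 on day 7 was -0.41 in replicate 2 with axotomized RNA in Cy3, against -0.12 to -0.10 on the others. Ptpn11 on day 7 was 0.25 in replicate 1 with axotomized RNA in Cy5, against 0.08 to 0.10. The remaining flagged values were on day 3, in replicate 2. With axotomized RNA in Cy3, Cntf was -1.22, against -0.88 to -0.83, and on the same array A2m was 1.07, against 0.79 to 0.80. With axotomized RNA in Cy5, Ccl20 was -0.06, against 0.14 to 0.15.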

How the results depend on the processing

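As reported, limma called 88, 153 and 0 genes on days 1, 3 and 7 and 0, 18 and 53 for day 3 against 1, day 7 against 1 and day 7 against 3, the order kept below, and 1, 0, 0, 0, 0 and 0 of the 9 members. Settings that treat the 12 arrays as separate values called more. A random block for the replicate gave 720, 1064, 288, 389, 868 and 917 genes and 4, 2, 0, 3, 2 and 1 members, with a correlation within replicates of -0.17. A dye term with that block gave 594, 958, 194, 290, 726 and 832 genes and 3, 1, 0, 2, 1 and 1 members, with a correlation of 0.23. On day 1 the first called Icam1, Il1b, Stat3 and Nfkbia, and the second called the same genes except Nfkbia. Arrays with axotomized RNA in Cy5 only gave 654, 298, 0, 2, 64 and 4 genes and 2 members on day 1 (Icam1 and Stat3), and those in Cy3 only gave 56, 125, 0, 0, 2 and 16 genes and 0 members. Quantile normalization gave 112, 75, 15, 91, 92 and 66 genes and 0 members, and single spots 2, 45, 0, 0, 4 and 0 spots and 0 of the members' spots. Each day fitted alone gave 13, 0 and 0 genes and 0 members. The difference between replicates 1 and 2 correlated over all genes at 0.26 between days 1 and 3. It correlated at -0.07 between days 1 and 7 and at 0.01 between days 3 and 7. Neither these values nor the labels settle whether same-numbered replicates of different days belong together. The replicate block, which assumes that they do, gave 53, 66, 0, 0, 11 and 0 genes and 0 members. On day 1 limma's adjusted p was then 0.051 for Icam1, 0.0562 for Cxcl1 and 0.0512 for Lcn2. On day 3 it was 0.0564 for Stat5a. The robust prior gave 79, 142, 0, 0, 11 and 51 genes, spots annotated with a RefSeq mRNA 85, 147, 0, 0, 13 and 54, and both, like median centring and the median of spots, kept 1 member on day 1. Leaving out each replicate in turn, where the lone replicate of a day is assumed to vary like the others, gave 0 to 36, 0 to 84, 0 to 18, 0 to 4, 0 to 22 and 0 to 19 genes and 0 members each time.

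Signs that turned all belong to values that did not pass. In Cy5 only, Il1a was -0.05, -0.13 and -0.05 on days 1, 3 and 7, Il6 was -0.10, -0.02 and 0.00, Socs3 on day 7 was -0.07, and Tnf differed by -0.01, 0.06 and 0.08 between days. In Cy3 only, Tnf was 0.02 and 0.09 and Socs3 0.15 and 0.02 on days 1 and 3, Stat3 was 0.05 and 0.04 on days 3 and 7, Ikbkb was -0.03 on day 3 and Junb 0.03 on day 1. In Cy3 only the difference of day 7 from day 1 was -0.02 for Socs3, and that of day 7 from day 3 was -0.05 for Il1a and -0.02 for Icam1. Stat3 on day 7 was 0.04 with the median of spots and 0.01 with RefSeq spots, and its difference from day 3 was 0.13 and 0.03. Leaving out each replicate in turn gave values on both sides of 0, or at 0, for some results that did not pass. On day 1 these were Il6 (-0.09 to 0.15) and Socs3 (-0.03 to 0.01), on day 3 Il1a (-0.02 to 0.03), Tnf (-0.03 to 0.00) and Stat3 (-0.09 to 0.07), and on day 7 Il1a (-0.02 to 0.06). Between days 1 and 3 it was Il6 (-0.07 to 0.17), between days 1 and 7 Il6 (-0.06 to 0.18) and Tnf (-0.03 to 0.01), and between days 3 and 7 Il1a (-0.03 to 0.06), Il6 (-0.04 to 0.07) and Stat3 (-0.08 to 0.07). The cause of these differences between settings was not tested. With no intensities deposited in the table used here, a filter on dim spots was not run, and the ratios of weak spots have an unknown floor.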
